A study of Rattus norvegicus with 9 samples.

Results

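The transcriptome of antigen-stimulated RBL-2H3 cells was compared with that of control cells, taking 6 of the 9 samples of the series: the 3 titled IgE/DNP (replicates 1 to 3) against the 3 titled Ctrl (replicates 1 to 3). RBL-2H3 is a rat basophilic leukemia line, a single established tumour line that carries the high-affinity IgE receptor FcεRI and is used as a model of mast cells (MCs). By the labels the IgE/DNP cells were given 50 ng/ml IgE against DNP over 12 h, then the antigen DNP-HSA at 100 ng/ml over 4 h, and no other agent. Of Ctrl they say both that it was untreated and that it was sensitized, in separate fields, so whether Ctrl cells carried IgE is not settled here. Nothing in the labels says that replicates came from separate cultures. P-values thus set the difference between groups against the spread within the groups, estimated partly across genes. That spread may be technical. The question was which functions and gene families change 4 h after antigen, including those whose change is small. Values are FPKM, the fragments of a gene scaled to its length and to the mapped fragments of the sample. The heading of the deposited values names no unit, and they are read as FPKM from the values themselves.

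FcεRI signals when antigen crosslinks its bound IgE: the kinases Lyn and Syk phosphorylate the adaptor Lat, calcium enters, and MAP kinases, NFAT and NF-κB act on the nucleus. Granules with histamine, serotonin, heparin and proteases are released first, prostaglandins and leukotrienes are made next, and cytokines and chemokines are transcribed over hours. Immediate early genes, such as those of the EGR, FOS and NR4A families, are transcribed first because they need no new protein.

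The test, by limma on log2(FPKM + 1), covered the 10392 genes that reached 1 FPKM in 3 or more of the 6 samples. A gene was called when its Benjamini-Hochberg adjusted p was at most 0.05. Log2 fold changes (log2FC) are on this scale, IgE/DNP over Ctrl, are given with their standard error (SE), and understate the change of genes at low FPKM. The call took in 3031 genes, 29.2% of those tested, with 1530 higher in IgE/DNP (14.7%) and 1501 lower (14.4%). The median log2 fold change over all tested genes was -0.0081, and the groups did not overlap in 45.8% of them. Among called genes the groups did not overlap in 99.7%, so lack of overlap adds no support to a call. Any share of a gene list that was called is to be read against these percentages. The lists were chosen with earlier results of these data known, so their shares and ranks are descriptions and not tests.

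The cells carried the markers of their label. All 18 mast cell and basophil markers with a row, from Fcer1a and Ms4a2, the α and β chains of FcεRI, to Kit and Gata2, had at least 1 FPKM in each of the 6 samples, and their levels summed to 6423 to 6623 FPKM in Ctrl and 6271 to 6365 FPKM in IgE/DNP. The 6 macrophage markers together stayed between 0.79 and 1.05 FPKM, the 5 fibroblast markers between 0.35 and 0.63 FPKM, and the neutrophil marker Camp and the B cell marker Pax5 were listed at 0 throughout. Single markers of other lineages were present in both groups without passing the test, among them Cd22 (174, 188 and 166 FPKM in Ctrl, 176, 181 and 191 FPKM in IgE/DNP) and the α-globin Hba2 (177, 206 and 175 FPKM in Ctrl, 171, 182 and 174 FPKM in IgE/DNP). These are bulk samples, in which fewer cells of a state and less RNA per cell cannot be told apart.

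Small changes made up nearly all of the response. Of the called genes, 2995 had an absolute log2 fold change under 1, 1501 of them higher and 1494 lower. Between 0.1 and 0.25 there were 587 higher and 700 lower genes, between 0.25 and 0.5 there were 692 and 663, and between 0.5 and 1 there were 219 and 131. At 1 and over, 29 were higher and 7 lower. The median called gene rose by 24.3% or fell by 17.6% in FPKM. Added over all called genes under 1, the FPKM of the higher genes rose by 12508 and that of the lower genes fell by 13681, whereas the 29 strong rises together gained 1356 FPKM. Detection depended on level: 14.6% of genes at 1 to 3 FPKM were called, 37.7% of those at 30 to 100 FPKM and 25.3% of those at 300 FPKM or more. Samples of one group differed in the median gene by 0.068 to 0.086 on the log2 scale, and samples of different groups by 0.128 to 0.149.

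**Figure D1:**
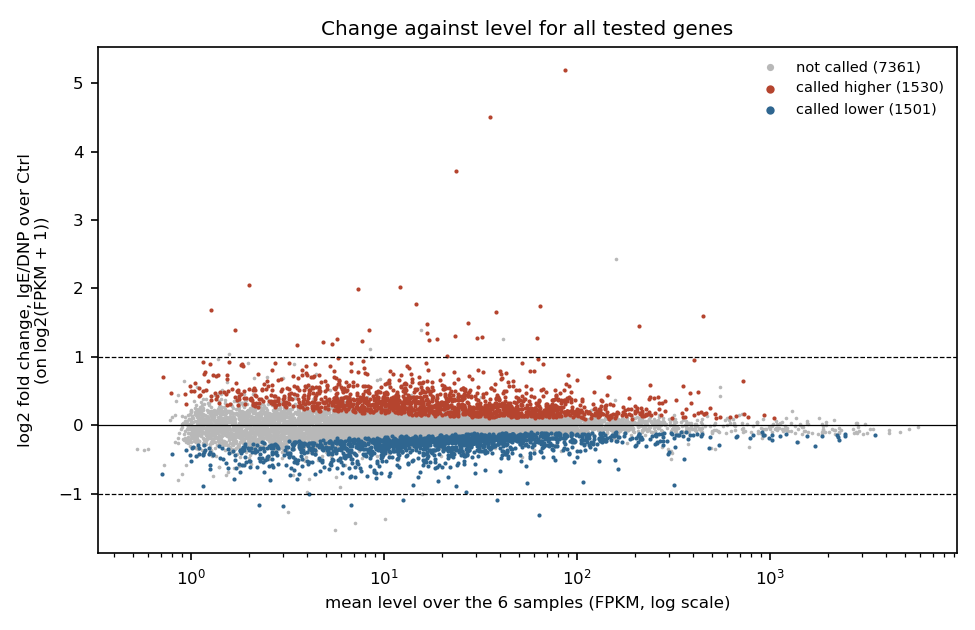
Each point is 1 of the 10392 tested genes, with its mean level over the 6 samples in FPKM on a log axis and its log2 fold change, IgE/DNP over Ctrl, on the vertical axis; the 1530 genes called higher are red, the 1501 called lower blue, and dashed lines mark a change of 1. Nearly all called genes lie between the dashed lines, at every level.

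Immediate early transcription factors held the largest changes of any gene. Of 26 tested members, 15 rose and 2 fell, with a median log2FC of 0.31. With at least 1 FPKM required in all 6 samples, 13 rose and 2 fell. Egr2 and Nr4a3 reached 1 FPKM only in IgE/DNP samples, so they could enter the test only by being high after antigen. Nr4a1 had a Ctrl mean of 0.49 FPKM, also under the filter's level. Egr1, a zinc finger activator, was at 3.59, 4 and 3.35 FPKM in Ctrl and at 158, 176 and 174 FPKM in IgE/DNP (log2FC 5.20, SE 0.063, limma adjusted p = 1.87e-09). Its relative Egr2 stood at 0.12, 0.05 and 0.06 FPKM in Ctrl and at 2.5, 2.28 and 2.61 FPKM in IgE/DNP (log2FC 1.69, SE 0.095). Both groups were far apart for each. Fosb, a FOS family subunit of AP-1, was at 2.21, 2.49 and 1.57 FPKM and 67.2, 68.8 and 69.8 FPKM (log2FC 4.50, SE 0.1, limma adjusted p = 1.09e-07). Egr3 was at 2.04, 2.82 and 2.64 FPKM and 42, 47.7 and 44.98 FPKM (log2FC 3.72, SE 0.091, limma adjusted p = 1.55e-07). With Egr1 these had the 3 highest log2FCs of the list, and in each the groups were far apart. The nuclear receptor Nr4a2 rose as well, with 5.7, 6.62 and 5.85 FPKM against 23.3, 24.04 and 22.02 FPKM (log2FC 1.77, SE 0.065, limma adjusted p = 1.55e-06), beside Nr4a3 (0.167 to 3.83 FPKM, log2FC 2.05) and Nr4a1 (0.49 to 1.82 FPKM, log2FC 0.93). The bZIP repressor Maff moved from 2.67, 3.2 and 3 FPKM to 7.74, 9.76 and 8.01 FPKM (log2FC 1.26, SE 0.096, limma adjusted p = 1.09e-04). Immediate early genes called lower numbered 1 without Ctrl 1 or Ctrl 3 or IgE/DNP 1 or IgE/DNP 2 or IgE/DNP 3 and 1 with replicate number as a block.

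Factors that were already abundant rose by far less. The AP-1 subunits Jun (251, 247 and 254 FPKM in Ctrl, 324, 312 and 326 FPKM in IgE/DNP), Junb (78.98, 87.4 and 69.05 FPKM, 106, 103 and 104 FPKM) and Jund (216, 245 and 218 FPKM, 296, 304 and 302 FPKM) had log2FCs of 0.35, 0.42 and 0.41. Their groups did not overlap. Srf, the factor that binds serum response elements, was at 7.103 FPKM in Ctrl and 8.75 FPKM in IgE/DNP (log2FC 0.27, limma adjusted p = 0.0298), a call lost without Ctrl 1, Ctrl 2, IgE/DNP 2 or IgE/DNP 3. Fosl2, another FOS family member, did not pass, at 36.4, 38.8 and 38.8 FPKM in Ctrl and 33.7, 39.7 and 33.9 FPKM in IgE/DNP. Klf10, which is induced by TGF-β in many cells, went the other way, from 60.7, 59.9 and 60.4 FPKM to 40.3, 44.2 and 40.97 FPKM (log2FC -0.52, SE 0.042, limma adjusted p = 1.39e-04).

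The promoters of 3 of these genes and of Ciart, the clock gene described further on, are shown because their motifs differ. They are the 250 bases before the RefSeq start (build GRCr8), 5′ to 3′ on the gene's strand: Egr1 at chr18:26736828-26737077 (plus strand), Egr2 at chr20:21054442-21054691 (minus strand), Maff at chr7:112792537-112792786 (plus strand) and Ciart at chr2:186112247-186112496 (minus strand). Capitals mark exact matches on either strand to the serum response element (CC, a run of A and T, GG), the CRE TGACGTCA, the EGR sites GCGGGGGCG or GCGTGGGCG, the AP-1 site TGACTCA, the TATA box TATAAA and the E-box CACGTG; the E-box was added after the values were seen.
Egr1: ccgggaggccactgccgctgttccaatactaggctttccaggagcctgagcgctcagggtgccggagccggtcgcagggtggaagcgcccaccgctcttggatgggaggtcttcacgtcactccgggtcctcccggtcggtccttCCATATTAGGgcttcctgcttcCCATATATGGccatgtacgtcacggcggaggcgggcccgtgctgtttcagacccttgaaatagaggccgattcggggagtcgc
Egr2: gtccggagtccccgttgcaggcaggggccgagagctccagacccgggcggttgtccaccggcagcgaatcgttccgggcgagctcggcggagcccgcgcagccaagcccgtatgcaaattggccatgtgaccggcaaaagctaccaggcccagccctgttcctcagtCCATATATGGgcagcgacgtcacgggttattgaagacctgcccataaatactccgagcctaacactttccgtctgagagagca
Maff: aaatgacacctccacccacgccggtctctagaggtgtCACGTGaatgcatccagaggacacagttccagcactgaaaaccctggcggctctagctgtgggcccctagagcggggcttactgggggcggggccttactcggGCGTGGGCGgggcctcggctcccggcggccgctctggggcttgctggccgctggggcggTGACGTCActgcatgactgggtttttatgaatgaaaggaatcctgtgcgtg
Ciart: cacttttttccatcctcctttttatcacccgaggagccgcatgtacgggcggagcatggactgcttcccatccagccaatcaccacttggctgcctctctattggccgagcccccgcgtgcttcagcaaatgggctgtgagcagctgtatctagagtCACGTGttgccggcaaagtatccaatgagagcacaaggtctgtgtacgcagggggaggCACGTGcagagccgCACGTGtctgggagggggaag

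Egr1 held a pair of serum response elements, 105 to 96 and 83 to 74 bases before the start, and Egr2 held 1 at 83 to 74. Maff held a CRE 51 to 44 bases before the start, an EGR site at 110 to 102 and an E-box at 213 to 208. Ciart held 3 E-boxes, at 93 to 88, 35 to 30 and 21 to 16 bases. Over all 33469 windows of the RefSeq table, which run 50 bases past the start, 1.64% held a serum response element, 1.83% a CRE, 3.2% an EGR site and 6.42% an E-box. Only 72.4% of the genes called with a log2FC of 1 or over and 79.7% of the tested genes had a window, so a comparison of motif shares between gene sets was void.

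In the lists of 2 other transcription factor families more genes fell than rose. Among Kruppel-like and SP genes, 1 rose and 8 fell of 16 (median -0.20). Those lower were Klf10, Klf11 (21.9 to 14.7 FPKM, log2FC -0.54), Klf3 (21.4 to 17.3 FPKM, log2FC -0.29), Klf16 (26.4 to 22.2 FPKM, log2FC -0.24), the activator Sp1 (31.1 to 26.7 FPKM, log2FC -0.21) and Sp2 (32.1 to 27.97 FPKM, log2FC -0.19), beside Sp100 and Sp110. The latter and the 1 higher gene, Sp140 (27.4 to 32.9 FPKM, log2FC 0.25), are nuclear body proteins that share only the start of their names with SP factors. Numbered zinc finger genes, most of them coding for DNA-binding repressors, showed 14 higher and 30 lower of 159 (median -0.08), the largest falls being those of Zfp566 (12.2 to 8.2 FPKM, log2FC -0.52) and Zfp787 (8.16 to 5.49 FPKM, log2FC -0.50). The share lower, 18.9%, was near the 14.4% of all tested genes. Scaled to the mean of the sums, there were 14 higher and 21 lower zinc finger genes. Here the count lower was 19 without IgE/DNP 2, 18 without Ctrl 1 or IgE/DNP 3 and 14 without IgE/DNP 1, and the count higher was 9 without IgE/DNP 3, 8 without Ctrl 2 or IgE/DNP 1 and 6 without IgE/DNP 2.

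Lineage factors of MCs did not move as one. Of 25, 6 rose and 3 fell (median 0.02). Mitf, the bHLH factor required for MC development, was at 17.6, 15.7 and 17.2 FPKM in Ctrl and 24.5, 26.5 and 23.7 FPKM in IgE/DNP (log2FC 0.54, SE 0.059, limma adjusted p = 5.69e-04), and each stimulated sample exceeded each control. Runx1 (25.3 to 35.4 FPKM, log2FC 0.47), Lmo2 (18.02 to 22.9 FPKM, log2FC 0.33) and Ikzf1 (45.97 to 56.6 FPKM, log2FC 0.29) also rose. Stat6, which transmits IL-4 signals, fell (33.4 to 25.2 FPKM, log2FC -0.39), and Gata2 did not pass (386, 396 and 390.4 FPKM against 372, 364 and 373 FPKM).

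Signalling genes split into those of feedback, which held strong rises, and those of the cascade itself, which moved little in both directions. Of 33 feedback regulators, 8 rose and 4 fell (median 0.01). Dusp6, a phosphatase of ERK, was at 19.03, 16.6 and 19.1 FPKM in Ctrl and 46.4, 44.3 and 47.5 FPKM in IgE/DNP (log2FC 1.29, SE 0.059, limma adjusted p = 4.97e-06). The nuclear MAP kinase phosphatase Dusp4 was at 69.5, 66.1 and 66.2 FPKM and 112, 113 and 112 FPKM (log2FC 0.73, SE 0.033, limma adjusted p = 4.84e-06). Neither pair of groups overlapped. The ERK pathway inhibitors Spry4 (1.79 to 5.27 FPKM, log2FC 1.17) and Spred1 (12.5 to 16.9 FPKM, log2FC 0.42), the cytokine signal inhibitor Socs3 (9.43 to 17.7 FPKM, log2FC 0.83) and the mRNA decay factor Zfp36l1 (35.9 to 88.2 FPKM, log2FC 1.27) rose. Zfp36, a close relative of the last and also a decay factor of cytokine mRNA, fell (78.8 to 64.4 FPKM, log2FC -0.29). Feedback genes called lower numbered 2 without Ctrl 2 or IgE/DNP 1 or IgE/DNP 2 or IgE/DNP 3.

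In FcεRI proximal signalling 5 of 31 genes rose and 7 fell (4 without IgE/DNP 3), with a median of -0.01 that turned to 0.0073 when samples were scaled to the mean of their sums. Lat was at 103, 122 and 110.3 FPKM in Ctrl and 133, 130.4 and 133 FPKM in IgE/DNP (log2FC 0.24, SE 0.056, limma adjusted p = 0.0142). The receptor's γ chain Fcer1g was at 702, 729 and 717 FPKM and 638, 648 and 631 FPKM (log2FC -0.16, SE 0.031, limma adjusted p = 0.00625). The direction thus differed between Lat and Fcer1g. The receptor's other chains, Fcer1a (log2FC -0.06, limma adjusted p = 0.235) and Ms4a2 (log2FC 0.09, limma adjusted p = 0.0653), did not pass. Lyn rose (42.8 to 49.4 FPKM, log2FC 0.20) but did not pass without IgE/DNP 3, while the kinase Prkcd (42.8 to 35.2 FPKM, log2FC -0.28) fell. Syk did not pass, at 9, 9.81 and 8.17 FPKM in Ctrl and 8.74, 9.44 and 8.01 FPKM in IgE/DNP.

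The MAP kinase list had 5 higher and 7 lower of 30, with a median of -0.0062 that became 0.012 under the same scaling. The higher members were the p38 branch kinases Map2k3 (22.2 to 30.6 FPKM, log2FC 0.44), Mapk14 (35.8 to 41.9 FPKM, log2FC 0.22) and Mapkapk2 (74.95 to 96.98 FPKM, log2FC 0.37), beside Hras and Mapk8, and the count higher was 3 without Ctrl 1 or Ctrl 2 or IgE/DNP 2, and 3 with replicate number as a block. Among those lower were the upstream kinases Map3k1 (35.5 to 27.03 FPKM, log2FC -0.38) and Map3k11 (5.94 to 4.35 FPKM, log2FC -0.37), and also Mknk1 (83.5 to 65.2 FPKM, log2FC -0.35). The count lower was 4 without IgE/DNP 3. The share higher, 16.7%, was near the 14.7% of all tested genes, and 23.3% were lower against 14.4%. NF-κB and NFAT genes showed 3 higher and 4 lower of 26 (median 0.0005): Nfkb1 rose (44.5 to 50.2 FPKM, log2FC 0.17), while Nfkb2 (16.5 to 13.1 FPKM, log2FC -0.31) and Nfatc1 (25.3 to 19.96 FPKM, log2FC -0.32) fell. Calcium genes leaned up, with 10 higher and 2 lower of 36 (median 0.07; 6 without IgE/DNP 3). Anxa1, a calcium-dependent membrane binding protein, was at 279.6, 286 and 290.5 FPKM in Ctrl and 424, 423 and 429 FPKM in IgE/DNP (log2FC 0.57, SE 0.03, limma adjusted p = 1.12e-05), and the calcium export pump Atp2b1 rose (18.2 to 24.1 FPKM, log2FC 0.39), whereas the channel subunit Orai2 fell (21.1 to 16.3 FPKM, log2FC -0.35). Calcium genes called lower numbered 1 without Ctrl 2 or IgE/DNP 1 or IgE/DNP 2 and 1 with replicate number as a block.

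Secreted signals included strong rises at both low and high levels. Of 15 cytokines and growth factors tested, 7 rose and 3 fell (median 0.21). Lif, a cytokine of the IL-6 family, was at 122, 110.1 and 103 FPKM in Ctrl and 302, 312 and 308 FPKM in IgE/DNP (log2FC 1.46, SE 0.056, limma adjusted p = 1.86e-06). Csf1, the macrophage growth factor, was at 329, 337 and 307 FPKM and 455, 443 and 452 FPKM (log2FC 0.47, SE 0.04, limma adjusted p = 1.69e-04). In FPKM these were the largest gains of the list. Il3, Il4 and Il13 had log2FCs of 2.02, 2.00 and 1.40 at far lower levels, and Tgfb1 rose slightly (187 to 215 FPKM, log2FC 0.21). Tnf did not pass, at 7.63, 6.15 and 5.32 FPKM against 9.24, 7.49 and 8.15 FPKM, with an adjusted limma p of 0.0606. Il18 fell (173 to 147 FPKM, log2FC -0.24). Of 5 chemokines tested, Ccl2 and Ccl7 (0.78 to 1.97 FPKM, log2FC 0.73) rose and Cxcl10, an interferon-induced attractant of T cells, fell (3.75 to 2.58 FPKM, log2FC -0.42), although Cxcl10 did not pass without Ctrl 2. Cytokine genes called lower numbered 1 without Ctrl 2 or IgE/DNP 2 or IgE/DNP 3. Chemokine genes called higher numbered 1 without IgE/DNP 1 or IgE/DNP 2 or IgE/DNP 3, because Ccl7 then failed the filter and was not tested. Its Ctrl samples, at 0.79, 0.95 and 0.6 FPKM, were all under 1 FPKM, so it entered the test only through its IgE/DNP samples.

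Among surface receptors of leukocytes more genes rose than fell. Of 18 leukocyte G protein-coupled receptors, 11 were higher, 61.1% against 14.7% of all tested genes, and 3 were lower (median 0.25; 7 without Ctrl 2). The prostaglandin E receptor Ptger4 was at 8.82, 8.25 and 7.68 FPKM in Ctrl and 13.7, 13.3 and 12.4 FPKM in IgE/DNP (log2FC 0.61, SE 0.065, limma adjusted p = 4.72e-04). The histamine receptor Hrh4 was at 8.78, 6.84 and 7.9 FPKM and 11.9, 12.2 and 12.9 FPKM (log2FC 0.60, SE 0.083, limma adjusted p = 0.00153). Every stimulated sample was above every control in both. Gpr35 (5.58 to 8.89 FPKM, log2FC 0.59), the sphingosine phosphate receptors S1pr2 (1.91 to 3.38 FPKM, log2FC 0.59) and S1pr1 (3.64 to 5.16 FPKM, log2FC 0.41), and the lysophosphatidic acid receptor Lpar6 (34.6 to 48.4 FPKM, log2FC 0.47) rose too. Lower were P2ry14, a receptor of UDP-sugars (65.8 to 53.6 FPKM, log2FC -0.29), and the 2 receptors of the chemokine CXCL12: Cxcr4, and Ackr3, which takes up CXCL12 without G protein signalling, at 128, 140.02 and 147 FPKM in Ctrl and 81.9, 76.3 and 74.1 FPKM in IgE/DNP (log2FC -0.83, SE 0.057, limma adjusted p = 6.36e-05).

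Receptors for cytokines and growth factors moved in both directions. Of 20 cytokine and stem cell factor receptors, 4 rose and 6 fell (median 0.01). Kit, the receptor of stem cell factor, on which MC survival depends, was at 289, 274 and 286 FPKM in Ctrl and 238, 241 and 234 FPKM in IgE/DNP (log2FC -0.25, SE 0.033, limma adjusted p = 0.0012). Csf2rb, the shared β chain of the IL-3, IL-5 and GM-CSF receptors, was at 343, 341 and 339.6 FPKM and 255, 262 and 249 FPKM (log2FC -0.42, SE 0.031, limma adjusted p = 1.07e-04), and its partner Il3ra fell as well (33.6 to 28.7 FPKM, log2FC -0.22). Il3 itself thus rose while both chains of its receptor were lower. The erythropoietin receptor Epor fell (13.6 to 7.94 FPKM, log2FC -0.70), and Tnfrsf12a, the receptor of TWEAK, rose (13.8 to 40.6 FPKM, log2FC 1.49). Receptor genes called higher numbered 2 without IgE/DNP 1 or IgE/DNP 2.

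Adhesion genes rose in 12 and fell in 5 of 30 cases (median 0.08; 7 without IgE/DNP 1 or IgE/DNP 2 for those higher). With at least 1 FPKM required in all 6 samples, 11 rose and 6 fell. Emp1, called higher, was at 0.36, 0.38 and 0.74 FPKM in Ctrl and 2.79, 2.83 and 3.09 FPKM in IgE/DNP. It thus entered the test only through its IgE/DNP samples. Higher were the urokinase gene Plau (8.38 to 25.04 FPKM, log2FC 1.48), the hyaluronan receptor Cd44 (3.97 to 6.17 FPKM, log2FC 0.53) and the integrin α chains Itgam (23.98 to 32.4 FPKM, log2FC 0.42), Itga4 (10.8 to 14.6 FPKM, log2FC 0.40), Itga9 and Itga5. Lower were Itga2b (11.1 to 7.24 FPKM, log2FC -0.56) and the β chains Itgb2 (38.5 to 30.7 FPKM, log2FC -0.32) and Itgb3 (55.7 to 45.9 FPKM, log2FC -0.28). The list's Itgb1bp1 and Itgb1bp2 are integrin-binding proteins and not integrins. Actin genes gave 9 higher and 4 lower of 55, led by the scaffold Ahnak (4.24 to 11.2 FPKM, log2FC 1.23) and the tropomyosin Tpm1 (6.05 to 9.49 FPKM, log2FC 0.57). Actin genes called lower numbered 2 without IgE/DNP 1 or IgE/DNP 2.

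**Figure D2:**
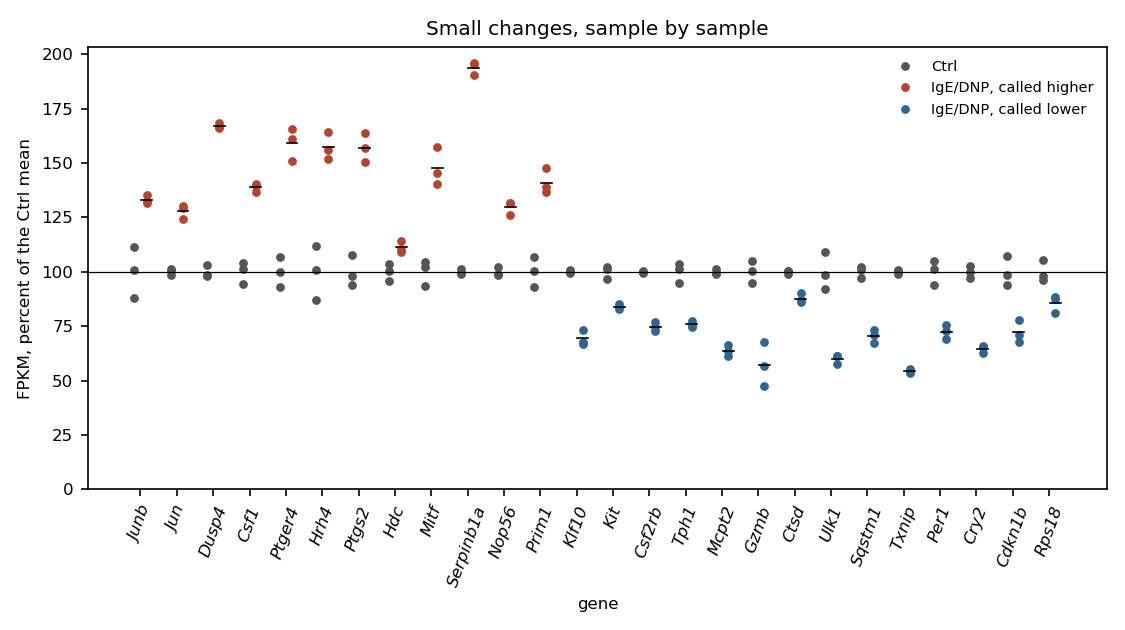
FPKM of 26 genes in each of the 6 samples, as percent of the gene's Ctrl mean (vertical axis from 0): grey points are Ctrl samples, red or blue points the IgE/DNP samples of genes called higher or lower, and black bars the IgE/DNP mean. The groups do not overlap in any of these genes, down to changes as small as that of Hdc, 229 to 255 FPKM. All are called genes, of which 99.7% show no overlap.

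Called granule protease genes were lower, and called genes of mediator synthesis were mostly higher. In the list of granule proteases and proteoglycan genes, 7 of 19 were lower and 3 higher (median -0.15), and all 7 lower ones code for proteases. The chymase Mcpt2 was at 198, 202 and 199 FPKM in Ctrl and 133, 122.8 and 127 FPKM in IgE/DNP (log2FC -0.64, SE 0.036, limma adjusted p = 1.88e-05). The basophil protease Mcpt8 was at 16.4, 18.9 and 20.4 FPKM and 10.4, 9.31 and 9.33 FPKM (log2FC -0.87, SE 0.081, limma adjusted p = 2.68e-04). Granzyme B, Gzmb, was at 20.03, 18.1 and 19.1 FPKM and 10.8, 9.04 and 12.9 FPKM (log2FC -0.76, SE 0.11, limma adjusted p = 0.00161). These falls took each stimulated sample below all controls. Carboxypeptidase Cpa3 fell less (65.96 to 56.1 FPKM, log2FC -0.23), Mcpt8l2, Mcpt8l3 and Mcpt3 fell with log2FCs of -0.69, -0.63 and -0.59. The chymase Cma1 did not pass (19.4, 21.5 and 20.9 FPKM against 19.8, 21.1 and 19.3 FPKM). Mcpt8, Mcpt8l2 and Mcpt8l3 are close copies, so the division of reads between them is uncertain. The 3 higher members, Ext1 (15.3 to 20.6 FPKM, log2FC 0.41), Ext2 (14.3 to 17.4 FPKM, log2FC 0.26) and Chsy1 (2.06 to 3.15 FPKM, log2FC 0.44), build the sugar chains of proteoglycans. Hs3st1, a heparan sulfate sulfotransferase outside the list, was at 40.3, 43.6 and 42.2 FPKM in Ctrl and 83.4, 84.1 and 81.8 FPKM in IgE/DNP (log2FC 0.97, SE 0.038, limma adjusted p = 2.35e-06).

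Among genes of amine and eicosanoid synthesis 7 rose and 2 fell of 21 (median 0.05). Ptgs2, the inducible prostaglandin synthase, was at 609, 555 and 529 FPKM in Ctrl and 924, 885 and 849.7 FPKM in IgE/DNP (log2FC 0.65, SE 0.055, limma adjusted p = 1.69e-04). Pla2g4a, the phospholipase that frees its substrate (85.9 to 103 FPKM, log2FC 0.26), and the prostaglandin D synthase Hpgds (199.96 to 227 FPKM, log2FC 0.18) rose too. So did Lta4h, a hydrolase of the separate leukotriene branch (34.7 to 42.8 FPKM, log2FC 0.29). Hdc, which makes histamine, was at 230.1, 238 and 219 FPKM and 261, 253 and 249.6 FPKM (log2FC 0.15, SE 0.038, limma adjusted p = 0.0188). Tph1, which starts serotonin synthesis, was at 353, 346 and 324 FPKM and 257, 255 and 264 FPKM (log2FC -0.40, SE 0.039, limma adjusted p = 3.44e-04). The enzymes at the head of the 2 amine pathways thus moved in opposite directions, and Ddc, the enzyme that completes serotonin, rose (66.5 to 87.1 FPKM, log2FC 0.38). Hdc and Hpgds did not pass without IgE/DNP 1 or IgE/DNP 2.

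Exocytosis genes were even, 9 higher and 9 lower of 40 (median 0.02). Rab27a, a GTPase of secretory granules, rose (93.1 to 114 FPKM, log2FC 0.29), as did the exchange factor Rabgef1 (8.997 to 24.6 FPKM, log2FC 1.35) and the syntaxin Stx11 (10.6 to 15.04 FPKM, log2FC 0.46). The vesicle protein Syt11 (22.97 to 14.7 FPKM, log2FC -0.62), the membrane fusion protein Snap29 (8.42 to 5.99 FPKM, log2FC -0.43) and the vesicle SNARE Vamp2 (104 to 89.5 FPKM, log2FC -0.22) fell. Rab GTPases gave 6 higher and 9 lower of 43, with a median of -0.01 that turned to 0.0037 after scaling to the mean of the sums. Every fit that left out 1 sample put the count lower at 3 to 5, and the count higher was 3 without Ctrl 1 or Ctrl 3 or IgE/DNP 2 and 2 without IgE/DNP 3. Scaled to the mean of the sums, there were 6 higher and 4 lower Rab genes.

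Called lysosomal genes were nearly all lower, by small amounts. Of 42 lysosomal enzymes and membrane proteins, 15 were lower, 35.7% against 14.4% of all tested genes, and 1 was higher, with a median of -0.11 and no member below -0.27. The protease Ctsd was at 846, 845 and 834 FPKM in Ctrl and 758, 732 and 724 FPKM in IgE/DNP (log2FC -0.19, SE 0.032, limma adjusted p = 0.00383). Hexa, a lysosomal glycosidase gene, was at 90.8, 92.7 and 88.7 FPKM and 78.8, 79.8 and 79.7 FPKM (log2FC -0.19, SE 0.032, limma adjusted p = 0.00349). The samples of the groups did not overlap in either gene. Ctsa (133 to 110.4 FPKM, log2FC -0.27), Lamp1 (227 to 201 FPKM, log2FC -0.18) and the granule membrane tetraspanin Cd63 (521 to 463 FPKM, log2FC -0.17) fell too. The 1 higher gene was the channel Mcoln1 (17.8 to 20.8 FPKM, log2FC 0.21), which did not pass without Ctrl 2, IgE/DNP 1 or IgE/DNP 2. Vacuolar proton pump genes showed 2 higher and 7 lower of 22 (median -0.11), with 4 without IgE/DNP 1 or IgE/DNP 2 or IgE/DNP 3 for those lower. Atp6v1g2 had the lowest log2FC (1.45 to 0.903 FPKM, log2FC -0.37), a call lost without Ctrl 1, Ctrl 2, IgE/DNP 1 or IgE/DNP 3, and the abundant membrane subunit Atp6v0a1 fell too (115 to 95.1 FPKM, log2FC -0.27). Pump genes called higher numbered 1 without IgE/DNP 3 and 0 without IgE/DNP 1.

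Autophagy genes had 11 members lower and 0 higher of 36 (median -0.12; 7 without IgE/DNP 3). Ulk1, the kinase that starts autophagy, was at 10.9, 12.1 and 10.2 FPKM in Ctrl and 6.78, 6.78 and 6.38 FPKM in IgE/DNP (log2FC -0.66, SE 0.07, limma adjusted p = 4.96e-04). The cargo receptor Sqstm1 was at 426, 431 and 411 FPKM and 309.9, 285 and 301 FPKM (log2FC -0.50, SE 0.039, limma adjusted p = 1.29e-04). Calcoco1, another cargo receptor (19.4 to 13.4 FPKM, log2FC -0.51), Wipi2, which binds the growing membrane (25.1 to 19.4 FPKM, log2FC -0.36), the lipid transfer protein Atg2a (11.8 to 9.13 FPKM, log2FC -0.34) and the autophagosome coat protein Map1lc3b (79.01 to 65.6 FPKM, log2FC -0.27) also fell, and the lower members thus covered start, cargo and membrane steps.

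The clock list had the highest share of lower members of the 60 lists, which were chosen with earlier results of these data known. Of 15 tested clock genes, 9 were lower, 60% against 14.4%, and 1 was higher (median -0.31). Ciart, a repressor of CLOCK and BMAL1 whose promoter with 3 E-boxes is printed above, was at 16.1, 18.99 and 17.1 FPKM in Ctrl and 8.19, 7.3 and 7.32 FPKM in IgE/DNP (log2FC -1.10, SE 0.073, limma adjusted p = 5.60e-05). The repressor Cry2 was at 18.9, 19.99 and 19.4 FPKM and 12.8, 12.2 and 12.8 FPKM (log2FC -0.59, SE 0.047, limma adjusted p = 1.32e-04). Per1, an early responding clock repressor, was at 31.04, 32.05 and 28.7 FPKM and 22.2, 23.1 and 21.1 FPKM (log2FC -0.45, SE 0.054, limma adjusted p = 8.57e-04). All 3 repressors were below the control range. The nuclear receptors Nr1d1 (47.1 to 36.03 FPKM, log2FC -0.38) and Nr1d2 (17.7 to 12.4 FPKM, log2FC -0.48), Per3, the output factor Tef and the kinases Csnk1d (79.4 to 63.8 FPKM, log2FC -0.31) and Csnk1e (30.99 to 23.9 FPKM, log2FC -0.36) fell as well. Nfil3, an opposing output factor that is also an activation gene of lymphocytes, rose (33.6 to 44.7 FPKM, log2FC 0.40). The activators Clock (9.62, 8.2 and 8.64 FPKM in Ctrl, 7.11, 8.28 and 7.23 FPKM in IgE/DNP) and Arntl (3.06, 3.21 and 3.49 FPKM, 2.59, 2.77 and 2.9 FPKM) did not pass.

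Several genes known to restrain growth were lower. In the MYC, MAX and MXD list, which includes arrestin-like nutrient sensors, 2 rose and 6 fell of 13 (median -0.17). Txnip, an inhibitor of glucose uptake, was at 410.2, 416 and 418 FPKM in Ctrl and 224, 229 and 221 FPKM in IgE/DNP (log2FC -0.88, SE 0.03, limma adjusted p = 1.04e-06), which was the smallest p of any gene that fell by under 1. Its relative Arrdc2 (9.18 to 4.99 FPKM, log2FC -0.76) and the MYC antagonist Mxd4 (16.6 to 11.2 FPKM, log2FC -0.53) fell, and Myc rose slightly (44.6 to 51.6 FPKM, log2FC 0.21), a call lost without Ctrl 1, Ctrl 2, IgE/DNP 2 or IgE/DNP 3. The cyclin list gave 3 higher and 5 lower of 29 with a median of 0.03. Its lower genes included the CDK inhibitors Cdkn1b (125, 109 and 115 FPKM in Ctrl, 90.5, 78.6 and 82.6 FPKM in IgE/DNP, log2FC -0.47, limma adjusted p = 0.00133) and Cdkn1a (131 to 104 FPKM, log2FC -0.32), the quiescence-linked cyclin Ccng2 (67.1 to 47.8 FPKM, log2FC -0.48) and, acting the other way, the kinase Cdk2 (41.5 to 31.04 FPKM, log2FC -0.41). Cyclin list genes called higher numbered 1 without IgE/DNP 1 or IgE/DNP 3.

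P53 target genes had 4 higher and 9 lower members of 20 (median -0.14). Gadd45a, a stress sensor and one of the most abundant genes to fall, was at 1921, 1877 and 1876 FPKM in Ctrl and 1528, 1456 and 1605 FPKM in IgE/DNP (log2FC -0.31, SE 0.043, limma adjusted p = 0.00153). The death genes Bbc3 (91.1 to 63.5 FPKM, log2FC -0.51) and Bax (104 to 87.8 FPKM, log2FC -0.24) and the autophagy-linked Tp53inp1 (66.1 to 43.4 FPKM, log2FC -0.59) fell, while Mdm2, which destroys p53 (54.7 to 79.3 FPKM, log2FC 0.53), and the kinase Plk3 (17.4 to 43.4 FPKM, log2FC 1.27) rose. The BCL2 family gave 1 higher and 4 lower of 15 (median -0.03), and those lower included the protective Bcl2l1 (33.4 to 23.9 FPKM, log2FC -0.47) beside Bbc3 and Bax. P53 targets called higher numbered 2 without Ctrl 1 or IgE/DNP 1 or IgE/DNP 2 or IgE/DNP 3. BCL2 family genes called higher numbered 0 without Ctrl 2 or Ctrl 3 or IgE/DNP 2 or IgE/DNP 3.

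The unfolded protein and ATF4 list had 19 lower and 6 higher members of 52 (median -0.09), and those higher were 3 without Ctrl 2 or Ctrl 3 or IgE/DNP 1 or IgE/DNP 2. Ddit4, an inhibitor of mTORC1, was at 49.6, 54.04 and 54.6 FPKM in Ctrl and 23.4, 24.8 and 24.1 FPKM in IgE/DNP (log2FC -1.10, SE 0.047, limma adjusted p = 3.34e-06). Sesn2, which also restrains mTORC1, was at 89.2, 87.1 and 85.6 FPKM and 64.05, 63.1 and 61.5 FPKM (log2FC -0.47, SE 0.034, limma adjusted p = 8.36e-05). The stimulated values of both were below all control values. Lower too were the pseudokinase Trib3 (24.96 to 16.7 FPKM, log2FC -0.55), the amino acid carriers Slc1a4 (30.7 to 23.1 FPKM, log2FC -0.40), Slc3a2 (358 to 288 FPKM, log2FC -0.32) and Slc38a2 (222 to 181 FPKM, log2FC -0.29), asparagine synthetase Asns (285 to 238 FPKM, log2FC -0.26), and Xbp1 (119.6 to 97.9 FPKM, log2FC -0.29) and Herpud1 (124 to 95.6 FPKM, log2FC -0.37) of the unfolded protein response. Its sensors Ern1 (21.8 to 29.05 FPKM, log2FC 0.40) and Atf6 (63.96 to 75.96 FPKM, log2FC 0.24) rose, the latter not without Ctrl 2 or IgE/DNP 2, and Atf4 did not pass (754, 751 and 749.9 FPKM against 725, 687 and 697 FPKM).

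The antioxidant list of NRF2 gave 3 higher and 8 lower of 35 (5 lower without IgE/DNP 1), and its median of -0.0034 turned to 0.015 under scaling to the mean of the sums. The metal-binding Mt1 (71.2 to 38.6 FPKM, log2FC -0.85), the growth inhibitor Osgin1 (49.5, 50.4 and 47.8 FPKM in Ctrl, 32.2, 29.8 and 29.6 FPKM in IgE/DNP, log2FC -0.67) and heme oxygenase Hmox1 (103 to 78.2 FPKM, log2FC -0.40) fell, and the quinone reductase Nqo1 rose (285 to 368 FPKM, log2FC 0.37). Interferon-stimulated genes showed 3 higher and 8 lower of 28 (median -0.11). The transcription factors Irf9 (6.51 to 4.16 FPKM, log2FC -0.54), Irf1 (25.3 to 18.2 FPKM, log2FC -0.45) and Stat2 (28.05 to 22 FPKM, log2FC -0.34) and the sensor Dhx58 (6.49 to 4.05 FPKM, log2FC -0.57) fell. Usp18 (8.49 to 11.1 FPKM, log2FC 0.35), Irf3 (30.2 to 36.7 FPKM, log2FC 0.28) and Irf5 (50.7 to 62.9 FPKM, log2FC 0.31) rose. In the MHC class I list 5 of 26 fell and 0 rose (median -0.06; 3 without Ctrl 2 or IgE/DNP 2), with β2-microglobulin B2m at 471, 463 and 467 FPKM in Ctrl and 429, 415 and 409 FPKM in IgE/DNP (log2FC -0.16, SE 0.031, limma adjusted p = 0.00671). The RT1 genes of the list are close copies of one another, and their values are uncertain. MHC list genes called higher numbered 1 without Ctrl 1. NRF2 genes called higher numbered 1 without Ctrl 1 or Ctrl 3 or IgE/DNP 1 or IgE/DNP 3 and 1 with replicate number as a block. Scaled to the mean of the sums, there were 1 higher and 5 lower MHC list genes.

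Called genes of ribosome biogenesis were mostly higher, and called genes of the ribosome itself were lower. Of 100 ribosome biogenesis genes, 32 were higher and 7 lower (median 0.06), with 20 without IgE/DNP 2 and 18 without IgE/DNP 3 for those higher and 4 without IgE/DNP 2 for those lower. Nop56, of the snoRNA particle that methylates rRNA, was at 84.2, 87.5 and 84.7 FPKM in Ctrl and 108, 113 and 113 FPKM in IgE/DNP (log2FC 0.37, SE 0.034, limma adjusted p = 2.44e-04). Dimt1, an rRNA methyltransferase (10.7 to 17.2 FPKM, log2FC 0.64), the processing factor Noc2l (21.7 to 29.4 FPKM, log2FC 0.42), Polr1b, a subunit of RNA polymerase I (7.29 to 9.28 FPKM, log2FC 0.31), and its activator Ubtf (19.9 to 24.7 FPKM, log2FC 0.30) rose. Urb2 led the lower genes (8.76 to 5.39 FPKM, log2FC -0.61). Among 82 cytosolic ribosomal proteins 11 fell and 0 rose (median -0.08), the count lower being 6 without Ctrl 2 and 5 without IgE/DNP 1 or IgE/DNP 2, and 7 with replicate number as a block. Their summed level was 142266, 146393 and 137648 FPKM in Ctrl and 133558, 131128 and 136964 FPKM in IgE/DNP. The share lower, 13.4%, was near the 14.4% of all tested genes. Rps18 was at 2364, 2406 and 2589.6 FPKM and 2149, 1993 and 2169.8 FPKM (log2FC -0.22, SE 0.05, limma adjusted p = 0.013), and Rps25 at 1508, 1505 and 1502 FPKM and 1238, 1263 and 1324 FPKM (log2FC -0.24, SE 0.036, limma adjusted p = 0.00225). Ribosomal protein genes called higher numbered 1 without IgE/DNP 3.

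Called mitochondrial ribosomal protein genes were mostly higher, 17 higher and 4 lower of 75 (median 0.06), led by Mrpl42 (31.1 to 50.1 FPKM, log2FC 0.68), Mrps11 (18.3 to 29.9 FPKM, log2FC 0.67) and Mrpl48 (14.9 to 24.04 FPKM, log2FC 0.66). Mitochondrial import genes had 8 higher and 3 lower of 45 (median 0.05), with the fission GTPase Dnm1l (20.8 to 30.7 FPKM, log2FC 0.54) and prohibitin Phb (78.2 to 99.8 FPKM, log2FC 0.35) higher and the mitophagy kinase Pink1 lower (6.04 to 4.25 FPKM, log2FC -0.43). Translation factors showed 13 higher and 7 lower of 67 (median 0.03), where 8 were higher without IgE/DNP 1 and those lower were 4 without Ctrl 2 or IgE/DNP 2 and 3 without IgE/DNP 3. Eef2k, a kinase that halts elongation, rose (205 to 267 FPKM, log2FC 0.38), as did the termination factor Gspt1 (65.6 to 84.6 FPKM, log2FC 0.36), and the abundant start-site factor Eif1 fell (1108 to 953 FPKM, log2FC -0.22). Aminoacyl-tRNA synthetases had 6 higher and 4 lower of 40, Lars up (68.5 to 83.2 FPKM, log2FC 0.28) and Sars down (290.2 to 247 FPKM, log2FC -0.23). Mitochondrial ribosomal genes called lower numbered 2 without Ctrl 2 or IgE/DNP 2. Synthetase genes called lower numbered 2 without Ctrl 1 or Ctrl 2 or IgE/DNP 2 or IgE/DNP 3. Import genes called lower numbered 5 without Ctrl 2 or Ctrl 3. Scaled to the mean of the sums, there were 17 higher and 4 lower translation factors, and 8 higher and 2 lower synthetases.

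Genes of nucleotide supply were called mostly higher, with 16 higher and 2 lower of 47 genes (median 0.07). The count higher was 10 without Ctrl 1, 9 without IgE/DNP 1, 7 without IgE/DNP 3 and 6 without IgE/DNP 2. Tk1, thymidine kinase, was at 66.1, 68.3 and 72.4 FPKM in Ctrl and 90.6, 89.98 and 91.1 FPKM in IgE/DNP (log2FC 0.39, SE 0.039, limma adjusted p = 3.93e-04). Adss, of adenylate synthesis (65.7 to 85.1 FPKM, log2FC 0.37), the polyamine enzymes Odc1 (77.2 to 89.1 FPKM, log2FC 0.20) and Sat1 (235 to 295 FPKM, log2FC 0.33), and Ahcy, of the methyl cycle (98.5 to 118 FPKM, log2FC 0.26), rose. DNA replication genes had 13 higher and 4 lower members of 61 (median 0.04); those higher were 8 without Ctrl 1 or IgE/DNP 3 and 7 without Ctrl 2 or IgE/DNP 1, and 8 with replicate number as a block. The primase Prim1 was at 72.5, 77.9 and 82.95 FPKM and 108, 106 and 115 FPKM (log2FC 0.49, SE 0.053, limma adjusted p = 5.29e-04), and the polymerase subunit Pold2 (23.3 to 31.5 FPKM, log2FC 0.42) and ligase Lig1 (27.9 to 35.2 FPKM, log2FC 0.32) rose, while the flap nuclease Fen1 fell (18.6 to 14.5 FPKM, log2FC -0.33). Nucleotide genes called lower numbered 1 without Ctrl 2 or IgE/DNP 1 or IgE/DNP 2 or IgE/DNP 3 and 1 with replicate number as a block. Replication genes called lower numbered 2 without Ctrl 1 or IgE/DNP 3.

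Mitosis genes were mixed, with 9 higher (5 without IgE/DNP 3) and 12 lower of 72 (median 0.01). The shares, 12.5% higher and 16.7% lower, were near the 14.7% and 14.4% of all tested genes. Those lower included Plk1 (38.5 to 31.01 FPKM, log2FC -0.30), Aurka (44.4 to 36.7 FPKM, log2FC -0.27) and Kif20a (40.2 to 32.1 FPKM, log2FC -0.32), and the kinetochore gene Spc25 (22.9 to 32.3 FPKM, log2FC 0.48) was higher. DNA damage repair genes had 13 higher, 8 without IgE/DNP 2, and 6 lower of 74 (median 0.05), with Parp1 up (32.8 to 42.96 FPKM, log2FC 0.38) and Xpa down (3.66 to 2.44 FPKM, log2FC -0.43). Histone genes had 4 higher and 4 lower of 35; the linker histone H1f0 rose (31.7 to 54.1 FPKM, log2FC 0.76). Histone genes called lower numbered 2 without Ctrl 3 or IgE/DNP 1 or IgE/DNP 2 and 1 without Ctrl 2.

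The nuclear pore and splicing lists also held more higher than lower members, 30.4% and 28.75% higher against 14.7% of all tested genes. The shares higher of the RNA polymerase, elongation and mRNA decay lists, 18%, 12.1% and 14%, were near that 14.7%. The nuclear pore list had 17 higher and 5 lower of 56 (median 0.06), where those higher were 11 without IgE/DNP 3 and 10 without IgE/DNP 1 and those lower 3 without Ctrl 1 or Ctrl 2 or IgE/DNP 2, 2 without Ctrl 3 or IgE/DNP 1 and 1 without IgE/DNP 3. Ndc1, which anchors the pore, was at 11.3, 11.6 and 13.1 FPKM in Ctrl and 21.6, 22.2 and 21.5 FPKM in IgE/DNP (log2FC 0.81, SE 0.06, limma adjusted p = 9.37e-05), and the Ran regulators Rangap1 (35.5 to 53.2 FPKM, log2FC 0.57) and Ranbp1 (168 to 199 FPKM, log2FC 0.24) rose. Of 80 splicing factors, 23 rose and 6 fell (median 0.03). The count higher was 15 without IgE/DNP 1, 14 without IgE/DNP 2, 11 without Ctrl 2 and 9 without IgE/DNP 3, and the count lower was 3 without IgE/DNP 2. The U2 particle protein Snrpa1 was at 28.6, 27.7 and 31.1 FPKM and 48.1, 53.7 and 51.6 FPKM (log2FC 0.79, SE 0.056, limma adjusted p = 7.83e-05). RNA polymerase subunits and general factors gave 18 higher and 7 lower of 100, with 4 lower without IgE/DNP 2, and Gtf2h4 (5.003 to 10.5 FPKM, log2FC 0.95) and Gtf3c3 (2.52 to 5.397 FPKM, log2FC 0.87) higher. Elongation genes had 4 higher and 3 lower of 33, among them the histone chaperone Ssrp1 up (63.5 to 90.9 FPKM, log2FC 0.51) and Hexim1, an inhibitor of P-TEFb, down (21.1 to 15.4 FPKM, log2FC -0.43). mRNA decay genes had 7 higher and 9 lower of 50; besides Zfp36l1, Btg3 rose (18.8 to 25.4 FPKM, log2FC 0.41) and Tob2 fell (20.5 to 13.2 FPKM, log2FC -0.60), the count higher was 4 without IgE/DNP 3 and 3 without Ctrl 3 or IgE/DNP 1 or IgE/DNP 2, and 5 were lower without IgE/DNP 3. The medians of these last 2 lists, -0.0024 and -0.0004, turned to 0.016 and 0.017 under scaling to the mean of the sums. Elongation genes called higher numbered 2 without Ctrl 2 or IgE/DNP 1 or IgE/DNP 2 and 1 without IgE/DNP 3. Those of elongation called lower numbered 1 without Ctrl 2.

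**Figure D3:**
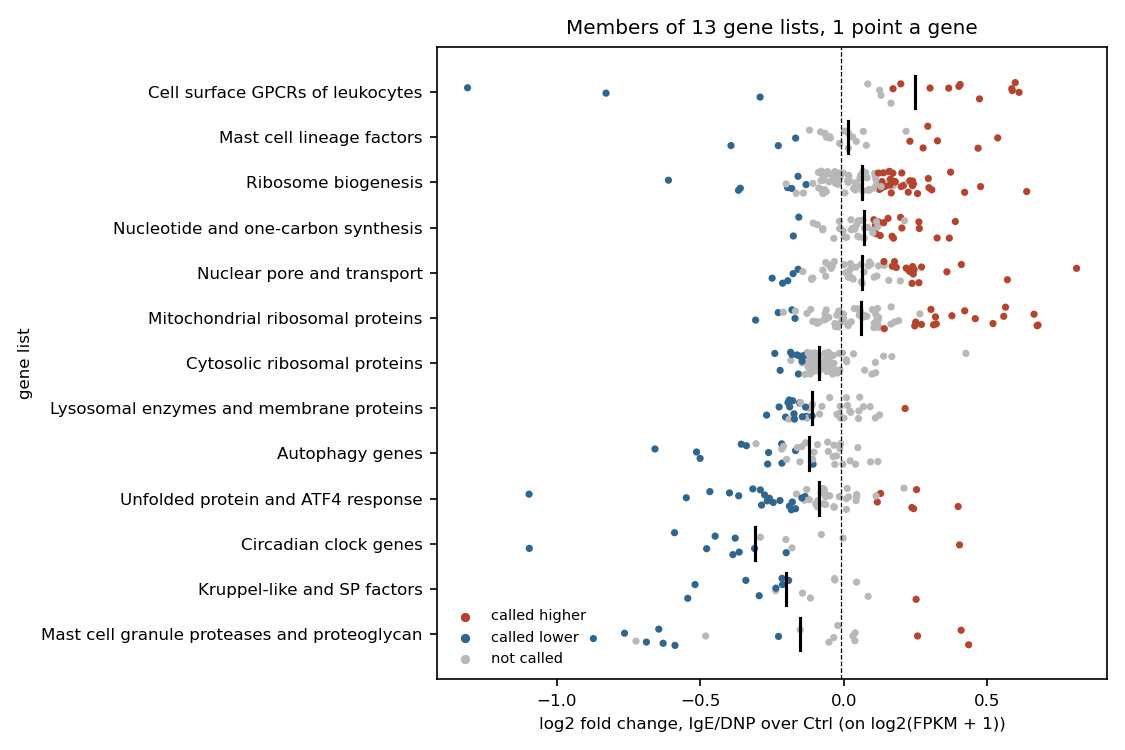
Log2FC, IgE/DNP over Ctrl, of each tested member of 13 lists (1 point a gene; red called higher, blue called lower, grey not called); the black bar is the list's median and the dashed line the median of all tested genes, -0.0081. Medians run from -0.31 for clock genes to 0.25 for leukocyte G protein-coupled receptors, and most lists hold members on both sides of 0.

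Chromatin modifiers had 17 higher and 27 lower members of 155 (median -0.04), and 19 and 20 when samples were scaled to the mean of their sums. The share lower, 17.4%, was near the 14.4% of all tested genes. Leaving out 1 sample gave 16 without IgE/DNP 1 or IgE/DNP 3 for those lower and 9 without Ctrl 2 or IgE/DNP 1 and 6 without IgE/DNP 2 for those higher. Phf23 (41.3 to 25.8 FPKM, log2FC -0.66) and the deacetylase Hdac5 (6.603 to 4.73 FPKM, log2FC -0.41) fell, and the acetyltransferase Kat2a (20.8 to 30.8 FPKM, log2FC 0.54), the demethylase Kdm1a (13.6 to 17.8 FPKM, log2FC 0.37) and the methyltransferase Ezh2 (39.8 to 50.2 FPKM, log2FC 0.33) rose. Chaperones had 12 higher and 5 lower of 44 (median 0.04), with the chaperonin subunits Cct7 (139 to 169 FPKM, log2FC 0.29), Tcp1 (113 to 134 FPKM, log2FC 0.25), Cct8, Cct6a and Cct3 and mitochondrial Hspd1 (195 to 232 FPKM, log2FC 0.25) higher and the cochaperone Bag1 lower (98.6 to 88.02 FPKM, log2FC -0.16); those lower were 3 without Ctrl 2, 2 without Ctrl 1 or IgE/DNP 3 and 1 without IgE/DNP 1 or IgE/DNP 2, and 3 with replicate number as a block. Proteasome genes had 8 higher and 3 lower of 50, led by the assembly factors Psmg3 (9.697 to 13.5 FPKM, log2FC 0.45) and Psmg2 (17.9 to 23.9 FPKM, log2FC 0.40). Ubiquitin-conjugating enzymes and deubiquitinases had 10 higher and 8 lower of 84 (6 without Ctrl 2 or IgE/DNP 3 and 5 without IgE/DNP 2 for those higher, 5 without IgE/DNP 3 for those lower), with Otud7b higher (15.8 to 24.3 FPKM, log2FC 0.59) and Ube2h lower (64.8 to 53.2 FPKM, log2FC -0.28). Transport from ER to Golgi and glycosylation were even at 13 and 13 of 82, where those lower were 8 without Ctrl 2 or IgE/DNP 1 or IgE/DNP 3 and 6 without IgE/DNP 2 and 8 with replicate number as a block, with the mannosyltransferase Alg3 (13.4 to 19.96 FPKM, log2FC 0.54) higher and the coat protein Sec24a (22.7 to 18.9 FPKM, log2FC -0.26) lower. Scaled to the mean of the sums, there were 11 higher and 2 lower proteasome genes.

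Metabolic lists held called genes in both directions. Glycolysis and pentose phosphate genes gave 8 higher and 4 lower of 36 (median 0.04). Ldha, which makes lactate, was at 697, 679.8 and 710.3 FPKM in Ctrl and 768, 781 and 778 FPKM in IgE/DNP (log2FC 0.16, SE 0.032, limma adjusted p = 0.00774). Rpia (11.6 to 14.9 FPKM, log2FC 0.33) and Tpi1 (189.7 to 219 FPKM, log2FC 0.20) rose. Respiratory chain genes gave 12 higher, 7 without IgE/DNP 1, and 6 lower of 89 (2 without Ctrl 2 or IgE/DNP 1 or IgE/DNP 2 or IgE/DNP 3 and 3 with replicate number as a block for those lower), with Ndufab1 (80.9 to 106 FPKM, log2FC 0.39) and Uqcrc2 (76.1 to 97.8 FPKM, log2FC 0.36) up. In the TCA and carrier list 9 rose and 10 fell of 58 (6 without Ctrl 2 or IgE/DNP 1, 5 without IgE/DNP 3 and 4 without IgE/DNP 2 for those lower), with Suclg1 (53.96 to 77.1 FPKM, log2FC 0.51) up and Acly, which makes acetyl-CoA for lipids and histones, down (540.1 to 427 FPKM, log2FC -0.34). Sterol genes gave 3 and 4 of 32, and fatty acid and sphingolipid genes 10 (6 without IgE/DNP 2) and 8 (5 without IgE/DNP 1) of 40, where Dgat1 rose (8.503 to 11.3 FPKM, log2FC 0.38) and Ormdl3, an inhibitor of sphingolipid synthesis, fell (24.4 to 18.5 FPKM, log2FC -0.38). Hypoxia genes had 7 higher and 5 lower (3 without IgE/DNP 3) of 21, with Ndrg1 down (99.7 to 78.2 FPKM, log2FC -0.35). Plasma membrane carriers had 11 higher and 18 lower of 87 (median -0.02; 11 lower without Ctrl 2 and 7 higher without IgE/DNP 2), with the zinc exporter Slc30a4 up (10.9 to 16.6 FPKM, log2FC 0.57). Tubulin and motor genes had 8 higher and 10 lower of 58 (6 without IgE/DNP 1 or IgE/DNP 2 or IgE/DNP 3 for those lower), including Dynll1 (111 to 182 FPKM, log2FC 0.71) and Map9 (10.7 to 26.9 FPKM, log2FC 1.25) up and Map4 down (18.5 to 15.1 FPKM, log2FC -0.28). Glycolysis genes called lower numbered 2 without Ctrl 3 or IgE/DNP 1 and 1 without IgE/DNP 2 or IgE/DNP 3. Sterol genes called higher numbered 1 without Ctrl 1 or IgE/DNP 1 or IgE/DNP 2 or IgE/DNP 3 and 1 with replicate number as a block. Scaled to the mean of the sums, there were 10 higher and 7 lower tubulin and motor genes, and 13 higher and 2 lower respiratory chain genes.

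**Figure D4:**
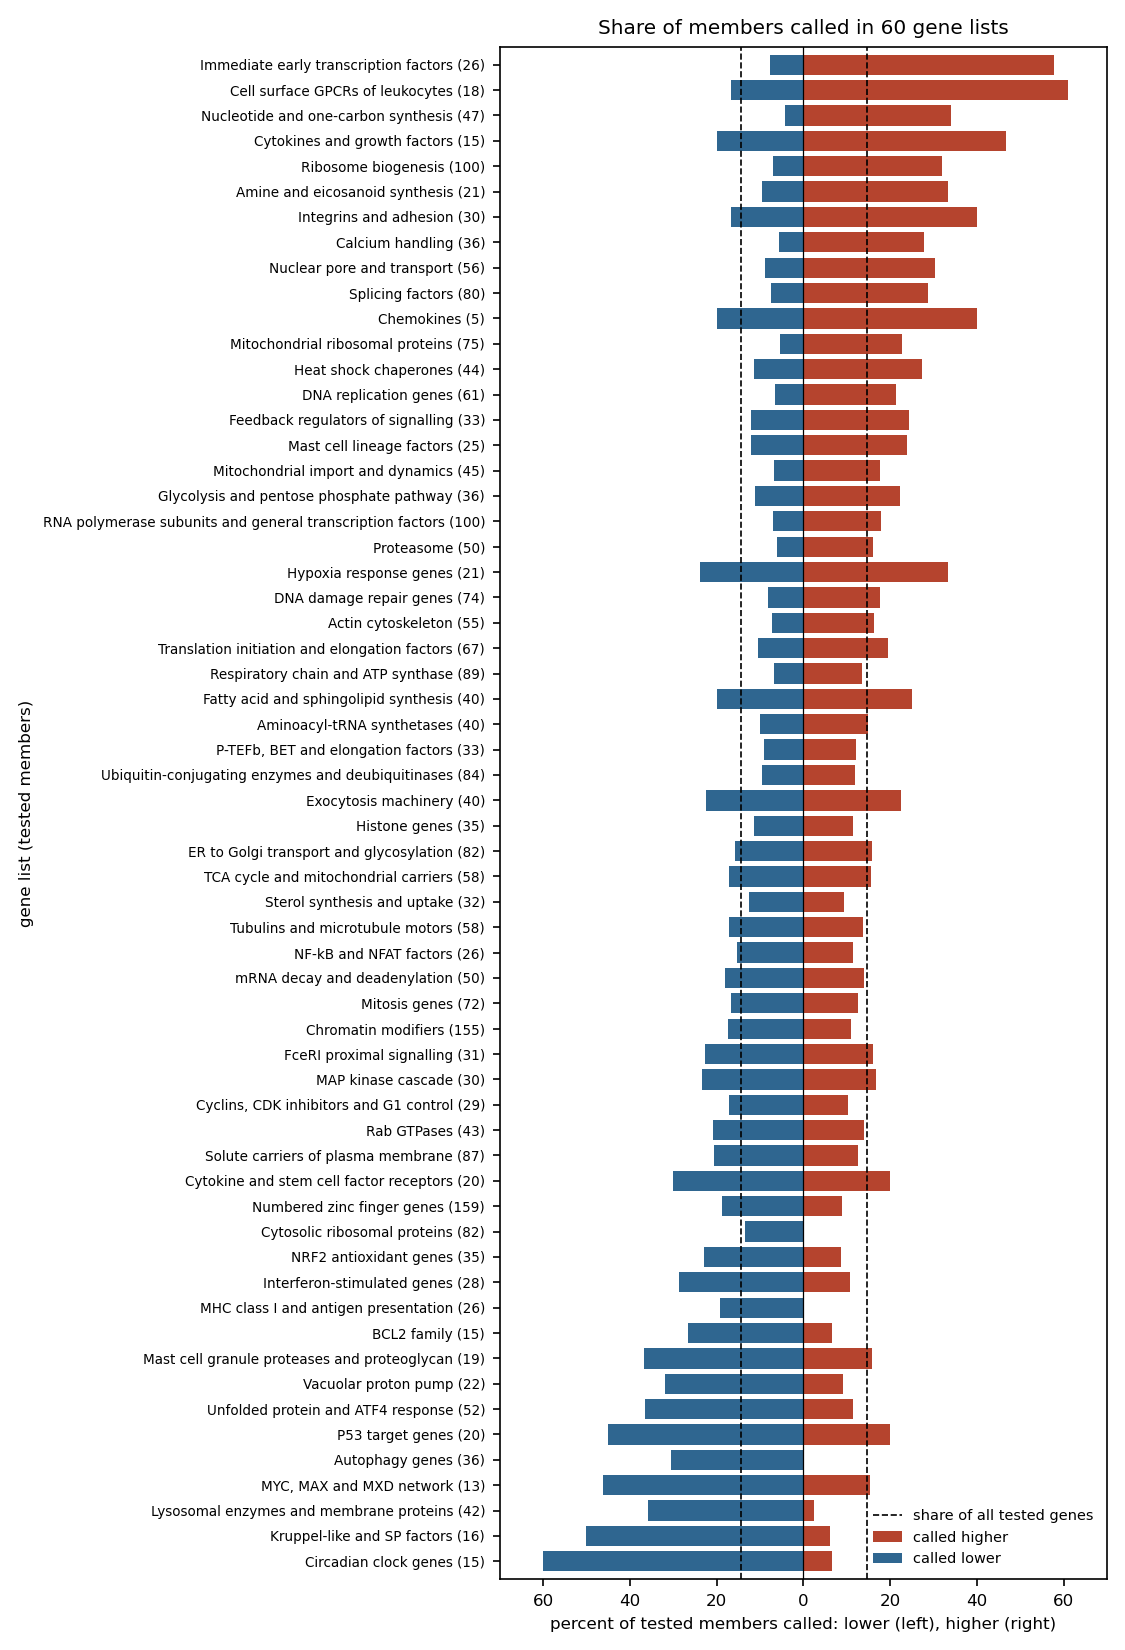
Percent of the tested members of 60 gene lists called higher (red, right) or lower (blue, left) in IgE/DNP against Ctrl, ordered by the difference, with the number of tested members in brackets; dashed lines mark the 14.7% and 14.4% of all tested genes. Immediate early factors (57.7% higher) stand at the top and clock genes (60% lower) at the bottom. Lists overlap in members, were chosen with earlier results of these data known, and none was tested as a set.

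Lists for which no median is given above had medians from -0.10 (histone genes) to 0.05 (aminoacyl-tRNA synthetases), and for chemokines it was 0.19. The lists held 2746 of the tested genes and 889 of those called, so most called genes belonged to no list. Among them, Serpinb1a, an inhibitor of granule proteases such as elastase, was at 274, 280.2 and 274 FPKM in Ctrl and 541, 525 and 539.5 FPKM in IgE/DNP (log2FC 0.95, SE 0.03, limma adjusted p = 8.42e-07). Tent5a, a poly(A) polymerase, was at 36.7, 35.8 and 34.6 FPKM and 67.3, 69.8 and 66.4 FPKM (log2FC 0.91, SE 0.038, limma adjusted p = 2.90e-06), and Fam107b at 78.3, 78.4 and 75.7 FPKM and 122, 124 and 122 FPKM (log2FC 0.66, SE 0.031, limma adjusted p = 5.84e-06). These, with Hs3st1 and Dusp4, had the smallest p of the genes that rose by under 1. On the lower side were Pafah2, which degrades the lipid mediator platelet-activating factor, at 26.1, 27.4 and 28.8 FPKM in Ctrl and 15.7, 15.9 and 15.6 FPKM in IgE/DNP (log2FC -0.76, SE 0.047, limma adjusted p = 3.59e-05), and the nuclear receptor coactivator Pnrc1, at 158, 153 and 149 FPKM and 105, 106 and 107 FPKM (log2FC -0.53, SE 0.034, limma adjusted p = 4.16e-05). In none of these 5 genes did a stimulated sample reach the control range.

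Changes of abundant called genes ranged from small to large, with Ccl2 (224 to 677 FPKM, log2FC 1.59) and Ptgs2 (564 to 886 FPKM, log2FC 0.65) among the larger. The 12 genes that follow moved by small amounts. They were picked among the most abundant called genes under 1 in log2 fold change, a choice that leaves out larger changes. Ptgs2, Gadd45a (1891 to 1530 FPKM, log2FC -0.31), Ldha (log2FC 0.16) and Rps18 (log2FC -0.22) came from the same choice and are described above. Higher were Eif5a (1018 to 1094 FPKM, log2FC 0.10), Ptma (884 to 984 FPKM, log2FC 0.15), Tkt (735 to 800.5 FPKM, log2FC 0.12), Tagln2 (633 to 697 FPKM, log2FC 0.14), Ncl (525 to 572 FPKM, log2FC 0.12) and Milr1, an inhibitory receptor of MCs (600.3 to 649.95 FPKM, log2FC 0.11). Lower were the ribosomal protein genes Rps6 (3696 to 3355 FPKM, log2FC -0.14), Rpl27 (2600.0 to 2331 FPKM, log2FC -0.16), Rps7 (2555 to 2338 FPKM, log2FC -0.13), Rpl23a (2402 to 2121 FPKM, log2FC -0.18) and Rpl13a (2349 to 2124 FPKM, log2FC -0.15) and the actin-binding Tmsb4x (1961 to 1764 FPKM, log2FC -0.15). Of these 12, only Rpl27, Rpl23a and Tmsb4x stayed called in each fit that left out 1 sample, and leaving out any of the 6 samples ended the call of several of the other 9. Of the genes with the largest falls, Lrrc51 (5.04, 4.48 and 4.07 FPKM in Ctrl, 1.08, 1.29 and 1.99 FPKM in IgE/DNP, log2FC -1.19) and the sulfate transporter family gene Slc26a11 (5.65, 5.89 and 5.77 FPKM, 1.99, 2.6 and 2.5 FPKM, log2FC -1.01) kept their call in each of these fits. LOC100911422 did not pass without Ctrl 2, IgE/DNP 2 or IgE/DNP 3, at 24.9, 44.1 and 37.3 FPKM in Ctrl and 24.8, 13.1 and 15.1 FPKM in IgE/DNP, a pair of groups that nearly touch.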

How the data were processed

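RNA of RBL-2H3 cells was sequenced in 9 samples, of which the 3 Ctrl and 3 IgE/DNP samples were compared. By the methods and submitters' notes, reads from a BGISEQ-500 were filtered by the authors (SOAPnuke), mapped to rn6 (HISAT2 2.0.4) and quantified per gene with Bowtie2 2.2.5 and RSEM 1.2.12; the labels name Illumina protocols. The deposited values, whose heading names no unit, are read as FPKM from the values themselves, normalized by the authors for length and depth. Read numbers are unknown, RSEM divides shared reads between copies, and precision rests on the replicates. Samples were joined by gene identifier, since rows came in 5 orders; 18006 of 38490 rows hold values. Genes that reached 1 FPKM in 3 or more samples were fitted on the log2(FPKM + 1) scale by limma 3.58.1 under R 4.3.3, with an intensity trend in the prior and Benjamini-Hochberg adjustment. The step was run on simulated data with independent noise and far fewer changed genes than were called here. That check does not vouch for the many small calls. No count test was run. The members and the 60 gene lists were chosen with earlier results of these data known. Named were, among called genes whose groups do not overlap, 8 at each end of the fold changes at a mean of at least 1 FPKM, and of those under 1 in log2 fold change the 8 most abundant and the 5 with the smallest p in each direction; per list, up to 3 called members a direction and others by their values; and cell type markers. No gene was at 0 in one group and at least 1 FPKM in all samples of the other. Of the highest and lowest genes, LOC103689931, Ppp1r35 and LOC100911840 are given no further account. Deviations of samples with the same replicate number correlated between -0.074 and 0.051 across genes. Those of samples with different numbers correlated between -0.047 and 0.106. The numbers thus showed no sign of pairing, but these values cannot tell whether replicates were handled in pairs. Promoters come from RefSeq (GRCr8), matched by gene identifier for 8278 of 10392 tested genes. Some members of the lists are counted but not reported here by name.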

Additional observations from a re-analysis of the deposited data

How the results depend on the processing

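Under a pseudocount of 0.1, no filter, at least 1 FPKM in all 6 samples, scaling by median ratios or to the mean of the sums, limma without trend or with a robust prior, and all 9 samples in the fit, between 2359 and 3147 genes were called, within 1.5 times the 3031 reported. Scaling to the mean of the sums gave 1669 higher and 1280 lower genes, and median ratios 1593 and 1429. A threshold of 0.01 called 1469 genes, 817 higher and 652 lower, with 1436 under 1 in absolute log2 fold change. Of the list counts, no filter moved 35 by more than 1.5 times or to none and left 85. Limma without trend moved 17 and left 103, and the threshold of 0.01 moved 82 and left 38. Splicing factors called higher numbered 11 with no filter, nucleotide genes 8 without trend and ribosome biogenesis genes 12 at 0.01. Cytosolic ribosomal protein genes called lower numbered 2 with no filter. The pseudocount of 0.1 put 69 genes at 1 or over in place of 36, since it shrinks the change of low genes less. The replicate number, which showed no sign of pairing the samples, used as a block left 2697 calls, 1368 higher and 1329 lower. Leaving out 1 sample in turn gave 2099 to 2736 calls, each arm keeping at least 2 samples. The filter was applied anew to the remaining samples. A gene at 1 FPKM only in IgE/DNP samples thus left the test when 1 of them was left out. No named gene that was called reversed its direction. Syk, not called, had a log2 fold change from -0.0983 to 0.0204 over the latter fits. Read depth is unknown, so counting error cannot be given, and genes under 3 FPKM are called least often.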
